A study of Mus musculus with 10 samples.

Results

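The 9 genes described here encode tumor necrosis factor (TNF, gene Tnf), the lymphotoxins (Lta, Ltb), their receptors (Tnfrsf1a, Tnfrsf1b, Ltbr), the B cell survival factor BAFF (Tnfsf13b) and the feedback inhibitors A20 (Tnfaip3) and IκBα (Nfkbia). All probe sets that carry one of these gene symbols in the platform's probe-to-gene table were taken, 17 of the 45037 on the array other than controls. Of the 17, 16 exceeded the array's median signal on 2 or more arrays and so entered the tests, among 23805 tested probe sets in all. Markers of B cells, T cells and macrophages each summed to a log2 signal of at least 12.88 in every array. No other tissue was set beside them, so these sums do not single out spleen.

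Spleen RNA came from 10 female BALB/c mice, each on 1 Affymetrix mouse expression array. Every mouse, arthritic or not, had been immunized i.p. with human cartilage proteoglycan (PG) in the adjuvant DDA, which leads to proteoglycan-induced arthritis (PGIA) in susceptible animals, so no untreated spleen is among the groups. The immunization scheme of the study had 3 injections, on days 0, 21 and 42, with 100 μg PG protein and 2 mg DDA in each. The groups were 2 old arthritic mice (both aged 9 months), 2 old non-arthritic mice (7 and 5 months), 2 young arthritic mice (5 and 4 months) and 4 young non-arthritic mice (3, 3, 2 and 1 months). In the old as in the young mice, the arthritic animals were all the older ones, so arthritis and age cannot be told apart there. The labels do not say whether age was counted at the first injection or at sacrifice. Arthritic and non-arthritic mice were compared first in 1 linear model with age in months as a term (called equal age below), and then within the old and the young mice. The model takes 1 straight slope of age, the same for arthritic and non-arthritic mice. A difference at equal age is thus an estimate that rests on this slope and does not remove the overlap of arthritis with age.

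TNF is made by activated macrophages, T cells and other leukocytes as a membrane protein that is cut off the cell surface, and it drives inflammation in joints. It signals through TNFR1, which most cells carry, and through TNFR2, found mainly on leukocytes and endothelium. Lymphotoxin α is secreted as a homotrimer that binds the TNF receptors, whereas lymphotoxin α joined to lymphotoxin β stays on lymphocytes and binds the lymphotoxin β receptor on stromal cells, a signal that keeps up the B cell follicles and follicular dendritic cells of the spleen. These receptors activate the transcription factor NF-κB. IκBα holds NF-κB in the cytoplasm, and A20 edits ubiquitin chains at the receptor complex to shut the signal off. Both are themselves induced by NF-κB.

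Ltb, Tnf and Lta lie side by side in the mouse genome (RefSeq, GRCm38.p6). Ltb is at chr17:35194507-35196305, Tnf at chr17:35199367-35202007 and Lta at chr17:35203165-35205578, with 3061 bases between Ltb and Tnf and 1157 bases between Tnf and Lta. Ltbr (chr6:125306571-125313885) and Tnfrsf1a (chr6:125349723-125362483) are also on 1 chromosome. Because feedback through NF-κB links these genes, the RefSeq promoter windows of all 9 (from 250 bases before the start of transcription to 50 bases after it) were searched on both strands for the NF-κB consensus. It was found in 3 of the 11 windows of these genes, those of Ltb, Tnfaip3 and Nfkbia, and in 4.51% of all 32851 windows in the table. The windows below are those of Tnf, which alone narrowly passed the test at equal age, and of the 3 genes with a match. Tnf is at chr17:35201958-35202257 (minus strand), Ltb at chr17:35194257-35194556 (plus strand), Tnfaip3 at chr10:19015361-19015660 (minus strand) and Nfkbia at chr12:55492598-55492897 (minus strand). Capitals mark the NF-κB consensus.
Tnf: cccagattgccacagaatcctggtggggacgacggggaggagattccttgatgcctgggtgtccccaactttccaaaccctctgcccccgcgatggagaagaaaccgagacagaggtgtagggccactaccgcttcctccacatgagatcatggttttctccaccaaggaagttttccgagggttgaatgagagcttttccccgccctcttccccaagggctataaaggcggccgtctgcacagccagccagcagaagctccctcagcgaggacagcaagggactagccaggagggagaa
Ltb: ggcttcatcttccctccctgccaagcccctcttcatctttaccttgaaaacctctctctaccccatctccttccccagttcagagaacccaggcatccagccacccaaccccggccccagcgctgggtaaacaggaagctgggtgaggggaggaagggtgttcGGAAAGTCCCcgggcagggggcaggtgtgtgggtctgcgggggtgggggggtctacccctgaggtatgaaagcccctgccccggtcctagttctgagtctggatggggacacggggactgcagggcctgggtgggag
Tnfaip3: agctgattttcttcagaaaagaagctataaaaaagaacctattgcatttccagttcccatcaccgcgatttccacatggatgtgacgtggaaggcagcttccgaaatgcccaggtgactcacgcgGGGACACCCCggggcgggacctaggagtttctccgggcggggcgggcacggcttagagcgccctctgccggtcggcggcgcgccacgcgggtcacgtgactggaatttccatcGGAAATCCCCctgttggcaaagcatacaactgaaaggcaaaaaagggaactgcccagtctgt
Nfkbia: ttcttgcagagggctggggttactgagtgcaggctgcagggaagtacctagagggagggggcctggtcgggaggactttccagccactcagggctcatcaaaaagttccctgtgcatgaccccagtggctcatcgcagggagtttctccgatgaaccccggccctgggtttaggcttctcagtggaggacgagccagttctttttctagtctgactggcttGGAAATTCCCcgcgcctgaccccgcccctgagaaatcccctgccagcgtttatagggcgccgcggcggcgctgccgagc
The matches began 87 bases before the start in Ltb, 125 and 12 bases before it in Tnfaip3 and 29 bases before it in Nfkbia. A match describes letters only and is not evidence of binding. No match in the Tnf window says no more than that the consensus is not in these 300 bases.

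Values are the authors' log2 RMA signals, so a difference of 1 is a factor of 2, and array medians lay between 6.88 and 6.96. Signals of different probe sets are not on 1 scale, so levels of different genes are not compared. Probe sets are combined only in the marker sums, where bright ones weigh most, and ranked only to find the brightest of a gene. Each p was adjusted over all 23805 probe sets (limma, Benjamini-Hochberg, two-sided), and a difference was called at an adjusted p under 0.05. At equal age 538 probe sets passed (2.26% of those tested), 431 of them higher in arthritic mice (1.81%) and 107 lower. The median difference of all 11870 tested genes was itself 0.11, and 76.1% of them were above 0. Over all tested probe sets the median was 0.09, and -0.00 once the arrays were quantile normalized again. A single array, old arthritic replicate 2, stood apart on the first principal component (score 52.6, next highest 19.6).

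Among the 9 genes, Tnf alone passed the test for arthritis. Its signal in arthritic spleens was 7.88 and 8.14 in the old mice and 8.09 and 8.13 in the young mice. In non-arthritic spleens it was 7.65 and 7.67 in the old mice and 7.70, 7.75, 7.51 and 7.67 in the young mice. All 4 arthritic mice thus lay above all 6 non-arthritic mice, with a gap of 0.13 between the nearest pair, and the lowest of the arthritic values came from an old mouse. The means were 8.06 ± 0.12 in arthritic (SD, n = 4) and 7.66 ± 0.08 in non-arthritic mice (SD, n = 6). At equal age the log2 difference was 0.43 (standard error 0.09, limma adjusted p = 0.0461), a 1.35-fold higher signal with a 95% interval of 1.17 to 1.55. This p lies close to the threshold. In a list of the 23805 probe sets by p, Tnf was number 402. The call was lost when any 1 of 8 arrays was left out and kept without old arthritic replicate 1 or young non-arthritic replicate 4, with adjusted p-values of 0.0315 to 0.254 over the 10 arrays. It was also lost in 6 of 10 other alternatives, among them a second quantile normalization (adjusted p = 0.106) and the replicate number as a block (adjusted p = 0.0805). The difference itself stayed between 0.39 and 0.45 in all 20 alternatives.

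Tnf was the only one of the 16 tested probe sets whose arthritic and non-arthritic arrays did not overlap. Over all tested probe sets, 10.4% had the 4 arthritic arrays above all others and 1.72% had them below. With 1 of 16, the share of these genes was near that background. Likewise an unadjusted p under 0.05 was found for 3 of the 16 probe sets, against 22.9% of all. Of the 9 genes, each by its brightest tested probe set, 6 had differences above 0, with a median of 0.16 against 0.11 for all genes. Nfkbia enters by 1420088_at (-0.01), which is not tied to a transcript in the platform table. Its probe set that is (1448306_at) had 0.10. After a second quantile normalization the median of the 9 genes was 0.02, with 5 above 0.

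**Figure D1:**
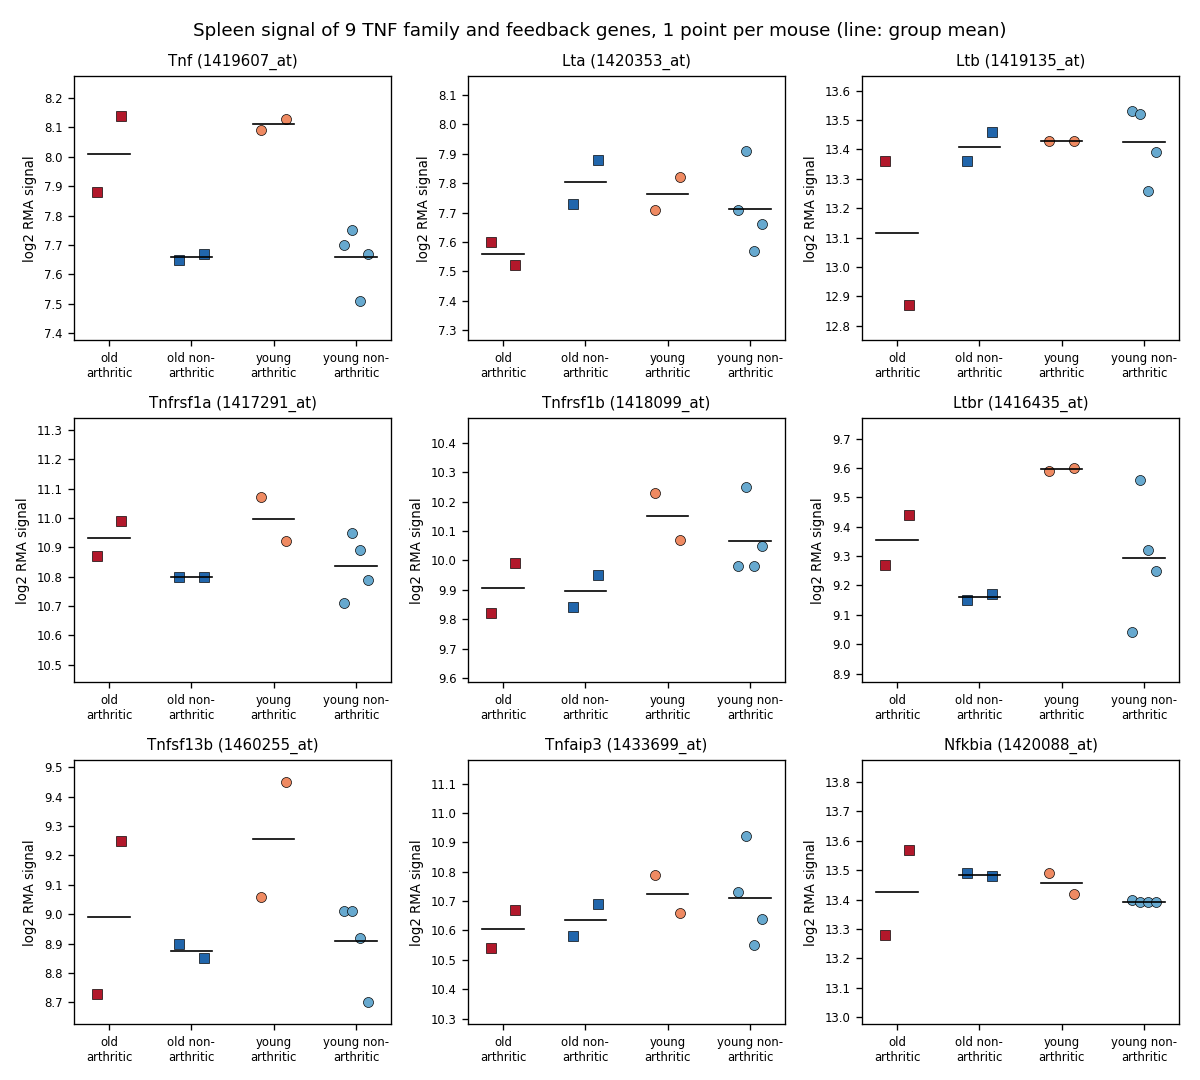
Spleen log2 RMA signal (y-axis) of the 9 genes in each of the 4 groups (x-axis), with 1 point per mouse (squares old, circles young) and lines at the group means. The arthritic and non-arthritic points are apart for Tnf (7.88 to 8.14 against 7.51 to 7.75) and overlap for the other 8 genes, and old arthritic replicate 2 is low for Ltb (12.87).

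The difference of Tnf pointed the same way at both ages, and neither passed the test by itself. In old mice the difference was 0.35 (standard error 0.11, limma adjusted p = 0.168), with means of 8.01 ± 0.18 in arthritic and 7.66 ± 0.01 in non-arthritic mice (SD, n = 2 each). It was 0.22 without old arthritic replicate 2 (adjusted p = 0.609) and 0.48 without old arthritic replicate 1 (adjusted p = 0.055). In young mice it was 0.45 (standard error 0.10, limma adjusted p = 0.0934), with means of 8.11 ± 0.03 in arthritic (SD, n = 2) and 7.66 ± 0.10 in non-arthritic mice (SD, n = 4). The difference between the effects was -0.11 (95% interval -0.45 to 0.23). In the old mice 17 probe sets of all tested passed (0.0714%) and in the young mice 74 (0.311%). None of the 16 probe sets of these genes was among them.

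Whole spleen RNA does not tell more cells of a type from more RNA per cell. No marker gene of the cell types listed here passed the test for arthritis at equal age. The summed log2 signal of 7 of 8 neutrophil markers (Ly6g had no probe set of its own) was 16.78 to 17.33 in arthritic and 15.96 to 17.04 in non-arthritic mice, and their median difference at equal age was 1.11. Plasma cell markers (4 of 5 listed symbols, not Igj) summed to 14.85 to 15.29 in arthritic and 14.81 to 14.91 in non-arthritic mice. Macrophages are a main source of TNF. Their markers (6 of 7 listed symbols, not Emr1) summed to 15.15 to 15.44 in arthritic and 15.23 to 15.36 in non-arthritic mice. Their median difference at equal age was 0.03. In old mice the sums were 15.15 to 15.18 in arthritic and 15.29 to 15.36 in non-arthritic mice. In young mice they were 15.35 to 15.44 in arthritic and 15.23 to 15.26 in non-arthritic mice. Arthritic mice were thus lower in the old and higher in the young groups. NK cell markers (3 of 4) summed to 11.25 to 12.15 in arthritic and 11.80 to 12.77 in non-arthritic mice. T cell markers (5 of 6) gave 12.88 to 13.19 in arthritic and 12.88 to 13.28 in non-arthritic mice, and erythroid markers (3 of 5) gave 14.45 to 14.90 in arthritic and 13.34 to 14.73 in non-arthritic mice. Markers of tissues next to the spleen summed to 7.67 to 8.62 in arthritic and 7.81 to 8.90 in non-arthritic mice for pancreas (3 of 4) and to 8.88 to 9.76 in arthritic and 9.25 to 9.62 in non-arthritic mice for fat and capsule (3 of 4). In old mice, neutrophil sums were 16.78 to 17.06 in arthritic and 15.96 to 16.13 in non-arthritic mice. NK cell sums were 11.25 to 11.63 against 12.31 to 12.34 there, and T cell sums 12.88 against 13.00 to 13.11. In young mice the sums of these cell types overlapped. Fat and capsule sums were lower in old arthritic mice (8.88 to 9.29 against 9.42 to 9.62). They were higher in young arthritic mice (9.74 to 9.76 against 9.25 to 9.60). The part of these cells in the Tnf signal was not tested.

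The lymphotoxin genes next to Tnf did not pass the test. Lta, which encodes lymphotoxin α, had 7.60 and 7.52 in old arthritic, 7.73 and 7.88 in old non-arthritic, 7.71 and 7.82 in young arthritic, and 7.71, 7.91, 7.57 and 7.66 in young non-arthritic mice. The old arthritic values lay below the old non-arthritic ones, while the young groups overlapped. Groups this small often do not overlap by chance. For separation within an age, here and for the genes below, no share over all probe sets is given, so it only describes the values. At equal age the difference was -0.05 (standard error 0.11, limma adjusted p = 0.819), in old mice -0.24 (standard error 0.12, adjusted p = 0.314) and in young mice 0.06 (standard error 0.11, adjusted p = 0.789). The 95% interval at equal age, -0.29 to 0.20, lies within a fold of 0.817 to 1.15.

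Ltb, which encodes the membrane-bound partner chain, varied mostly through 1 mouse. Its signal was 13.36 and 12.87 in old arthritic, 13.36 and 13.46 in old non-arthritic, 13.43 and 13.43 in young arthritic, and 13.53, 13.52, 13.26 and 13.39 in young non-arthritic mice. Only old arthritic replicate 2, at 12.87, was outside the range of the non-arthritic mice. In old mice the difference was -0.30 (standard error 0.16, limma adjusted p = 0.335), and it was -0.05 without that array and -0.54 without the other old arthritic mouse. At equal age it was -0.05 (standard error 0.13, limma adjusted p = 0.852) and in young mice 0.00 (standard error 0.14, adjusted p = 0.989). B cells express Ltb strongly, and 5 of their markers summed to 14.74 to 14.87 in arthritic and 14.55 to 14.91 in non-arthritic mice.

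The receptors had differences above 0 at equal age, as did 76.1% of all genes, and none passed. After a second quantile normalization Tnfrsf1a had 0.02 (adjusted p = 0.923), the Tnfrsf1b probe sets 0.03 and 0.02 and Ltbr 0.24. Tnfrsf1a, the gene of TNFR1, had 10.87 and 10.99 in old arthritic, 10.80 and 10.80 in old non-arthritic, 11.07 and 10.92 in young arthritic, and 10.71, 10.95, 10.89 and 10.79 in young non-arthritic mice. The old groups did not overlap and the young groups did. The difference at equal age was 0.16 (standard error 0.08, limma adjusted p = 0.268). Tnfrsf1b, the gene of TNFR2, is measured by 2 probe sets. The brighter of them (1418099_at) had 9.82 and 9.99 in old arthritic, 9.84 and 9.95 in old non-arthritic, 10.23 and 10.07 in young arthritic, and 9.98, 10.25, 9.98 and 10.05 in young non-arthritic mice. Arthritic and non-arthritic mice overlapped at both ages, and the difference was 0.16 (standard error 0.10, adjusted p = 0.37) at equal age and 0.10 (standard error 0.11, adjusted p = 0.598) in the other probe set. Within ages the brighter one had smaller differences. They were 0.01 in old mice (standard error 0.12, adjusted p = 0.959) and 0.08 in young mice (standard error 0.11, adjusted p = 0.684).

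Ltbr, the lymphotoxin β receptor, had the largest difference of the receptors. Its signal was 9.27 and 9.44 in old arthritic, 9.15 and 9.17 in old non-arthritic, 9.59 and 9.60 in young arthritic, and 9.04, 9.56, 9.32 and 9.25 in young non-arthritic mice. Within each age group the arthritic values lay above the non-arthritic ones, by little in the young mice because of 1 non-arthritic mouse at 9.56. At equal age the difference was 0.35 (standard error 0.12, limma unadjusted p = 0.0153, adjusted p = 0.129), with a 95% interval of 0.08 to 0.62. It passed with array weights (0.36, adjusted p = 0.0177) and not in the other alternatives, over which it was 0.23 to 0.40. The value of 0.23 is that without the age term. Within ages the differences were smaller than at equal age. They were 0.19 in old mice (standard error 0.15, limma adjusted p = 0.499) and 0.30 in young mice (standard error 0.13, adjusted p = 0.266).

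BAFF, encoded by Tnfsf13b, keeps mature B cells alive. The brightest of its 3 probe sets (1460255_at) had 8.73 and 9.25 in old arthritic, 8.90 and 8.85 in old non-arthritic, 9.06 and 9.45 in young arthritic, and 9.01, 9.01, 8.92 and 8.70 in young non-arthritic mice. The young groups did not overlap, and the old arthritic mice lay on either side of the old non-arthritic ones. The difference at equal age was 0.31 (standard error 0.16, limma adjusted p = 0.266), and 0.11 without young arthritic replicate 2 (adjusted p = 0.825). A dimmer probe set (1445251_at) had 0.29 (standard error 0.11, adjusted p = 0.149). It lay above the array median in 3 arthritic arrays and 1 non-arthritic array, so that it entered the test mainly through the arthritic mice. The third (1458047_at), between 3.97 and 4.35 in all mice, was below the filter and had 0.03 (standard error 0.10) in a fit of all probe sets.

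**Figure D2:**
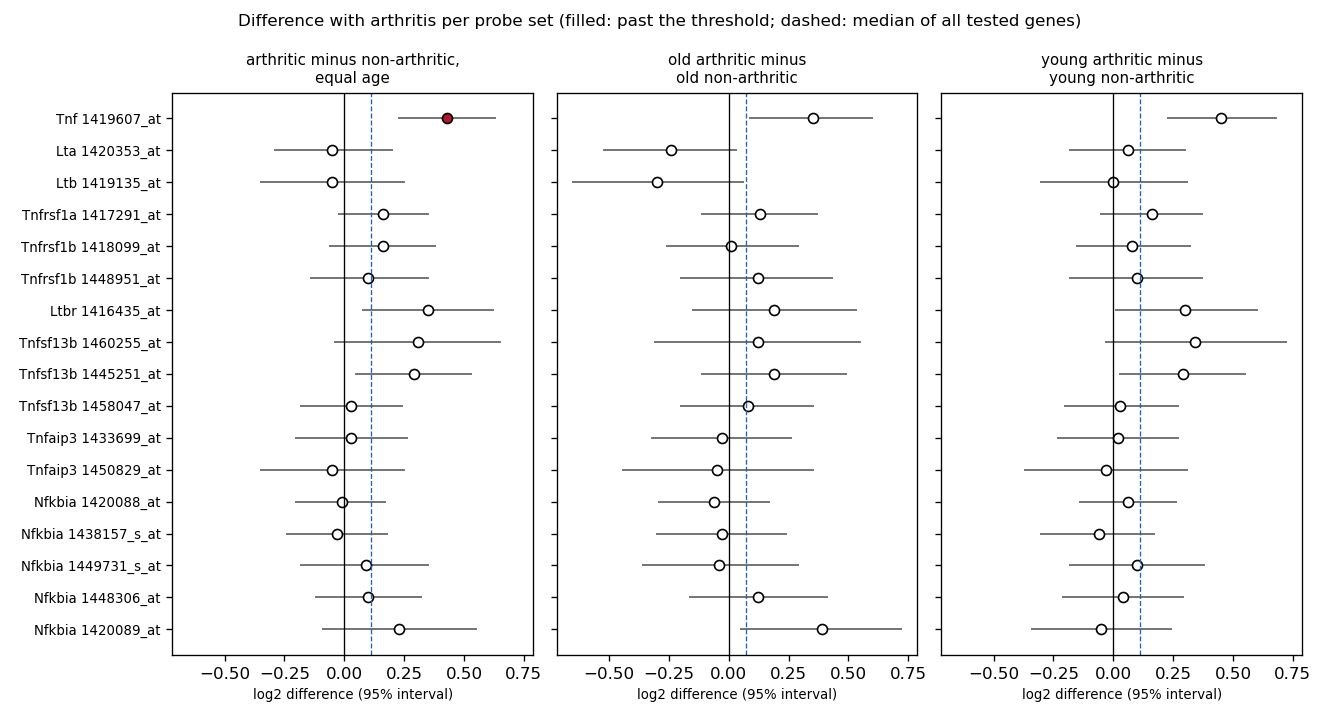
Log2 difference (x-axis) with its 95% interval for each of the 17 probe sets (rows), arthritic minus non-arthritic mice at equal age (left), in old mice (middle) and in young mice (right), with the dashed line at the median of all tested genes. The filled point is Tnf at 0.43 at equal age, the only one past the threshold, and the intervals of most others include 0.

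The feedback inhibitors did not pass the test. Tnfaip3 (1433699_at) had 10.54 and 10.67 in old arthritic, 10.58 and 10.69 in old non-arthritic, 10.79 and 10.66 in young arthritic, and 10.73, 10.92, 10.55 and 10.64 in young non-arthritic mice. The groups overlapped at both ages. The difference at equal age was 0.03 (standard error 0.10, limma adjusted p = 0.885, 95% interval -0.20 to 0.26), and that of its second probe set was -0.05 (standard error 0.13, adjusted p = 0.842). Nfkbia (1420088_at) had 13.28 and 13.57 in old arthritic, 13.49 and 13.48 in old non-arthritic, 13.49 and 13.42 in young arthritic, and 13.40, 13.39, 13.39 and 13.39 in young non-arthritic mice. The 2 old arthritic mice gave both the lowest and the highest value. Its difference was -0.01 (standard error 0.08, limma adjusted p = 0.944, 95% interval -0.20 to 0.17).

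The 5 probe sets of Nfkbia disagreed with each other over the 10 mice, with correlations from -0.0586 to 0.693, and only 1448306_at is tied to a transcript in the platform table. The 4 brighter ones had differences of -0.03 to 0.10 at equal age. The dimmest (1420089_at) had 7.64 and 7.85 in old arthritic, 7.38 and 7.33 in old non-arthritic, 7.71 and 7.61 in young arthritic, and 7.59, 7.78, 7.51 and 7.96 in young non-arthritic mice. Its old non-arthritic values were the lowest of all. Its difference was 0.39 in old mice (standard error 0.15, limma unadjusted p = 0.0281, adjusted p = 0.218) and -0.05 in young mice (standard error 0.13, adjusted p = 0.848).

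Age was compared in 2 ways, and none of the 16 probe sets passed in either. The slope per month of labelled age, at equal arthritis status, ran from -0.04 to 0.01 on the log2 scale, and 1 probe set of all tested passed (0.0042%). The smallest p belonged to Tnfrsf1b (1418099_at), with a slope of -0.04 per month (standard error 0.02, limma unadjusted p = 0.0466, adjusted p = 0.494). Its second probe set had a slope of 0.00 (adjusted p = 0.979), and the 2 correlated at 0.408 over the 10 mice. Between old and young mice without arthritis, no probe set on the array passed (0%). Tnf did not differ there, with 7.66 ± 0.01 in old (SD, n = 2) and 7.66 ± 0.10 in young mice (SD, n = 4), and a 95% interval of -0.22 to 0.23. The largest of these differences was -0.36 for the dim Nfkbia probe set 1420089_at (limma unadjusted p = 0.022, adjusted p = 0.997). At the age of 5 months, which an old non-arthritic and a young arthritic mouse share, the young arthritic mouse had 8.09 for Tnf and the old non-arthritic mouse 7.67.

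The effect of arthritis was not shown to depend on age. By the brightest probe set of each of the 9 genes, the effect in old minus that in young mice was below 0. The median was -0.11 against -0.04 for all genes, of which 41.8% were above 0. Of the 16 tested probe sets 4 had values above 0, up to 0.44 for the dim Nfkbia probe set 1420089_at, and Tnf had 0.02 without old arthritic replicate 1. No probe set on the array passed this test (0%), and none of the 16 had an unadjusted p under 0.05. After a second quantile normalization 2 of the 9 turned above 0.

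**Figure D3:**
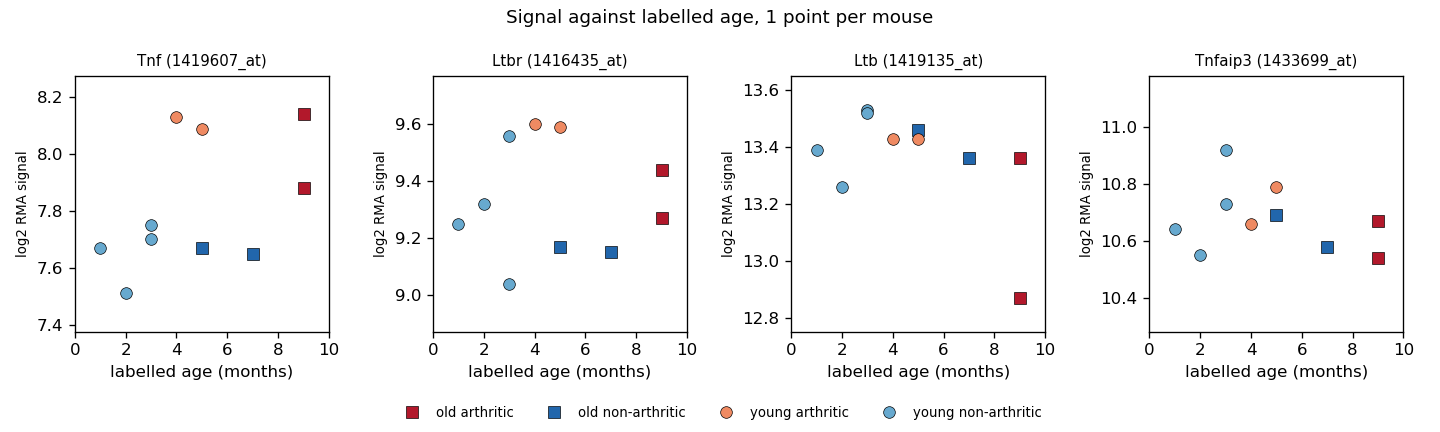
Log2 RMA signal (y-axis) of Tnf, Ltbr, Ltb and Tnfaip3 against labelled age in months (x-axis), where each point is 1 mouse. The arthritic mice (red and orange) all lie above the non-arthritic mice (blue) for Tnf, while they overlap for Tnfaip3 and Ltb is low in 1 mouse aged 9 months.

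Other genes of the pathway were taken from 7 lists with 96 genes, of which 71 had a tested probe set. At equal age 3 of the 71 (Ccl2, Sharpin and Tnfrsf21) were called higher in arthritic mice, beside 1.81% of all tested probe sets, and none fell. Ccl2 passed the filter on dim probe sets only through arthritic mice, so its call is no support for the list. The median difference was 0.06 against 0.11 for all genes. None passed in the other 5 comparisons. Sharpin, a subunit of the complex that builds linear ubiquitin chains at TNFR1, was 10.99 to 11.04 in arthritic and 10.54 to 10.70 in non-arthritic mice. Its difference was 0.34 (standard error 0.07, limma adjusted p = 0.0436). Tnfrsf21, death receptor 6, was 10.46 to 10.73 in arthritic and 10.24 to 10.36 in non-arthritic mice, a difference of 0.37 (standard error 0.08, limma adjusted p = 0.0472). Both were called in 7 of 20 alternatives and Tnf in 6 of 20, and after a second quantile normalization Sharpin had a difference of 0.20 and Tnfrsf21 of 0.22, which did not pass.

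Ccl2, a chemokine that draws monocytes and is induced by TNF, had 6.98 and 6.64 in old arthritic, 5.88 and 6.48 in old non-arthritic, 7.15 and 7.23 in young arthritic, and 6.67, 6.60, 6.55 and 6.77 in young non-arthritic mice. Within each age group arthritic mice were higher, and over all mice the groups overlapped. The difference at equal age was 0.86 (standard error 0.12, limma adjusted p = 0.0178), and 0.50 without the age term (adjusted p = 0.0759). Within ages Ccl2 had 0.63 in old and 0.54 in young mice, both below the value at equal age. Its signal was above the array median in 3 arthritic and 0 non-arthritic arrays, so it entered the test only through the arthritic mice. It was called in 12 of the 19 alternatives that could test it, and a stricter filter removed it.

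Of the 8 tested TNF-induced genes 7 had differences above 0 (median 0.16), beside 76.1% of all genes, and none other than Ccl2 passed. Tnfaip2 had 0.42 (adjusted p = 0.111), Ier3, an early stress-response gene, 0.31 (adjusted p = 0.211) and Sod2, the mitochondrial superoxide dismutase, 0.21 (adjusted p = 0.256). Among the 7 genes that control TNF release and mRNA none passed (median 0.18). They included Adam17, the protease that cuts TNF off the membrane (0.18, adjusted p = 0.28), its inhibitor Timp3 (0.33, adjusted p = 0.125), the mRNA-destabilizing protein gene Zfp36 (0.27, adjusted p = 0.147) and the RNA-binding protein gene Elavl1 (0.23, adjusted p = 0.263). The list of 8 NF-κB subunits and inhibitors had a median of 0.02 with none past the threshold, among them Relb (0.20, adjusted p = 0.324), Rel (-0.15, adjusted p = 0.416), Nfkb2 (-0.10, adjusted p = 0.607) and Nfkbiz (0.08, adjusted p = 0.688).

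Of 22 tested signalling genes only Sharpin passed (median 0.07). Next to it stood Tab2 (0.24, adjusted p = 0.131), Traf6 (0.20, adjusted p = 0.167) and Ikbkg, the regulatory subunit of the IκB kinase (0.19, adjusted p = 0.281). Of the other receptors of the family 16 were tested (median 0.10). Tnfrsf17, the receptor BCMA of plasma cells, had 8.07 to 9.33 in arthritic and 7.53 to 8.05 in non-arthritic mice. The groups did not overlap, but the difference of 1.04 (standard error 0.25) missed the threshold (limma adjusted p = 0.0606). The part of the plasma cell markers given above in this value was not tested. Tnfrsf11a, the RANK receptor, had 0.30 (adjusted p = 0.154) and Tnfrsf22 0.18 (adjusted p = 0.233). The other 2 BAFF receptors, named here after their values were seen, were Tnfrsf13c (0.22, adjusted p = 0.244) and Tnfrsf13b (0.04, adjusted p = 0.853).

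Of 13 other ligands 9 had a probe set of their own and 4 were bright enough to be tested, none of which passed (median -0.04). Tnfsf8, the CD30 ligand, had 7.31 to 7.51 in arthritic and 7.31 to 7.79 in non-arthritic mice, with a difference of -0.34 (standard error 0.10, limma adjusted p = 0.0985). Tnfsf14, the LIGHT ligand of Ltbr, had 0.31 (adjusted p = 0.337), and 0.05 without young arthritic replicate 2. Fasl had -0.05 and Tnfsf10 -0.04. The 6 tested genes of lymphotoxin-dependent stroma and follicular dendritic cells had a median of -0.04. They included Cxcl13, which attracts B cells to follicles (-0.14, adjusted p = 0.484), the IgE receptor gene Fcer2a (-0.23, adjusted p = 0.428), Icam1 (0.10, adjusted p = 0.63) and the complement receptor gene Cr2 (-0.08, adjusted p = 0.797).

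**Figure D4:**
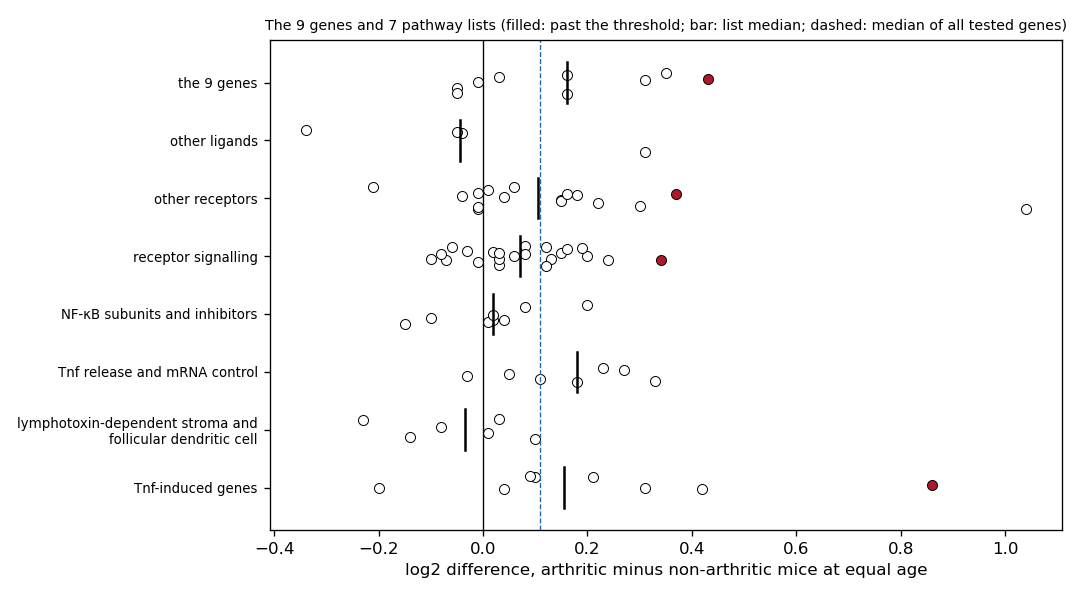
Log2 difference at equal age, arthritic minus non-arthritic (x-axis), of each gene by list (rows), where each point is 1 gene, short bars are list medians and the dashed line is the median of all tested genes at 0.11. Filled points passed the threshold, namely Tnf (0.43), Tnfrsf21 (0.37), Sharpin (0.34) and Ccl2 (0.86), and the unfilled point at 1.04 is Tnfrsf17.

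The genes whose signal most resembled each of the 9 over the 10 mice were found by Pearson's r among 11869 other tested genes, as a description without a test. Tnf was closest to Pex16 (r = 0.988), a peroxisome assembly gene, with 9.51, 9.83, 9.69 and 9.75 in arthritic and 8.98 to 9.28 in non-arthritic mice, and to Adck2 (r = 0.981). In all, 296 genes had an r above 0.9 with Tnf. Ltb was closest to Gpr174 (r = 0.978), a receptor of lymphocytes, and to 2010315B03Rik (r = 0.976). Both were at their lowest in old arthritic replicate 2 (7.90 and 7.96), as was Ltb, so that 1 mouse weighs heavily in these values. Lta was closest to Zc3h12d (r = 0.914) and Sh3bp2 (r = 0.91), Tnfrsf1a to Timm10b and Ip6k2 (r = 0.943 each), Tnfrsf1b to Phc1 (r = 0.973) and 5031439G07Rik (r = 0.964), and Ltbr to Tmbim6 (r = 0.967) and Unc13d (r = 0.957). Tnfsf13b was closest to Hcfc2 and Fut8 (r = 0.964 each), Tnfaip3 to Bod1 (r = 0.947) and Cwc15 (r = 0.941), and Nfkbia, by 1420088_at, to Zfp622 (r = 0.91) and Fndc10 (r = 0.898). Within the 9 genes the highest r was that of Tnfrsf1a with Ltbr (0.894), and the lowest that of Ltb with Nfkbia (-0.509). By ranks (Spearman's rho) these pairs had 0.879 and -0.0303. Old arthritic replicate 2 had both the lowest Ltb (12.87) and the highest Nfkbia (13.57), so that 1 mouse weighs heavily in the lowest r.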

How the data were processed

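Spleen RNA of 10 PG-immunized mice was measured with 1 Affymetrix array each. The authors deposited log2 signals, 1 per probe set and array, made with RMA (version not given in the sources used here) by the submitters' processing notes. RMA subtracts background, equalises the arrays' distributions and combines the probes of a set. The paper does not describe the arrays. Of 45101 rows, 64 controls were left out. The platform table gives 1 symbol to 34945 probe sets, several to 932 and none to 9160; only the first were named. Probe sets above the array median in at least 2 arrays were tested with limma 3.58.1 in R 4.3.3 (lmFit, eBayes), with a Benjamini-Hochberg adjusted p under 0.05. One model held arthritis and age in months, another a mean for each of the 4 groups. A gene stands for its tested probe set with the highest mean. The fit was tested on simulated data. The labels call the mice biological replicates, and the number of arrays limits the precision.

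The members, the pathway lists and the markers were chosen with earlier results of these data known. All member probe sets are named, with up to 4 genes of smallest p from each list (and all that passed, where 5 or fewer did), and for each member the 2 genes with the highest r. Alternatives covered the filter, normalization between arrays, the spread, array weights, the replicate block, the age term, the mice in the fit and each array in turn. Promoter windows are from RefSeq, GRCm38.p6, and all 9 genes matched by symbol. Figures were drawn with matplotlib 3.10.9.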

Additional observations from a re-analysis of the deposited data

How the results depend on the processing

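The number of probe sets of the 9 genes past the threshold at equal age was 1 (Tnf) as reported. It was 0 with a stricter filter on dim probe sets (Tnf adjusted p = 0.0571), with a second quantile normalization (0.106), with each array centred on its median (0.0705), in mice aged 4 months or more (0.0827) and without both old arthritic arrays (0.0532). It was 3 with array weights (Tnf, Ltbr and the dimmer Tnfsf13b probe set), and 1 with no filter, with an intensity trend and with no age term. Leaving out 1 array gave 0 to 1. With the replicate number as a block it was 0, with 0.41 for Tnf (limma adjusted p = 0.0805). The deviations of same-numbered mice from their group means had correlations of -0.525 to 0.356. In groups of 2 the deviations mirror each other, so these values cannot show whether same-numbered mice share a batch. In young mice the count was 0 as reported and 1 (Tnf) with no filter and with array weights. With a second quantile normalization 1 Nfkbia probe set had all arthritic mice below the others, against 0 as reported. No value of a single gene that had passed changed sign. The count over all probe sets at equal age (538) ran from 29 to 5475 over these alternatives and from 0 to 872 over those that left out 1 array.

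The small number of arrays limits the smallest difference that can be called. Each group of 2 mice borrows its spread from the others, although spreads can differ between groups. For Tnf the SD was 0.18 in old arthritic and 0.01 in old non-arthritic mice. In the fit at equal age the standard errors of the tested probe sets of these genes were 0.08 to 0.16, so differences as small as those of most of these genes cannot be told from 0.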
